A study of Homo sapiens with 6 samples.

Results

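The transcriptome of THP-1 cells carrying a scrambled short hairpin RNA (shRNA) was described from the 3 scrambled samples of a series of 6, and the table that holds them has 33981 gene rows. THP-1 is an established human monocytic acute myeloid leukemia (AML) line that carries the KMT2A::MLLT3 (MLL::AF9) fusion. The study infected this line with lentivirus giving either scrambled shRNA (named C1, C3 and C4 in the labels) or shRNA against NFIC, sorted the GFP-positive cells 4 days after infection and sequenced their RNA in bulk. The NFIC shRNA samples were not used here and no comparison with them was made. All 3 scrambled samples had the same line, vector type, marker and time, grown per the labels in IMDM with serum and antibiotics, whereas the methods name RPMI for the line. The methods name the control vector of this experiment GFP only, whereas the labels name scrambled shRNA. The paper's results name the scrambled samples C1, C2 and C4, whereas the labels name C1, C3 and C4. The labels do not say whether the 3 samples were separate cultures, so the spread between them may be technical.

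Monocytic AML blasts are arrested between the granulocyte-monocyte progenitor and the monocyte. Progenitors at the promyelocyte and promonocyte stage make the proteases of azurophil granules, whereas mature monocytes rely on surface receptors, scavenger molecules and cytokines. MLL fusions keep HOXA genes and their cofactor MEIS1 switched on, and these genes support self-renewal of the leukemic cells.

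The total count was 21736868 in C1, 24809720 in C3 and 21619842 in C4. Levels are given as the FPKM values of the table, which are size-factor normalized counts per kilobase of gene. The table has 1 length per gene, which need not be that of the transcript expressed. TPT1, with a length of 7269 bases, had a mean of 121688 counts but 735 FPKM, rank 41 among protein-coding rows. The order of genes by FPKM therefore depends on these lengths. A gene was counted as expressed when its FPKM was at least 1 in each of the 3 samples. A count of 3, taken as the limit that no count allows, was 0.138, 0.121 and 0.139 CPM (the count scaled to library size) in C1, C3 and C4, and such limits cover counting error only. Errors are SD over the 3 samples. In bulk RNA, fewer cells with a transcript and less RNA per cell cannot be told apart.

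The line expressed 14715 of the 33981 rows (43.3%), and 11049 of 17080 protein-coding rows (64.7%). In GENCODE 44, 16988 of 19970 protein-coding genes of the autosomes and X had a row (85.1%). Genes without a row are not part of these shares. Among protein-coding rows, 26 had a mean FPKM over 1000 and 284 were between 100 and 1000. Between 10 and 100 there were 3800 rows, and between 1 and 10 there were 7130. A further 5414 had counts but a mean below 1, and 426 had no count in any of the 3 samples. The median protein-coding row was at 3.10 FPKM, and the median expressed one at 6.96 FPKM. The share of protein-coding rows that were expressed ran from 51.6% on chromosome X to 72.1% on chromosome 20.

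Counts were concentrated in few genes. The gene with the most counts took 2.43% ± 0.0506 of them, the top 10 took 6.21% ± 0.0489, the top 100 took 21.1% ± 0.101 and the top 1000 took 51.4% ± 0.155. In each sample, between 915 and 932 genes held 50% of all counts. Protein-coding genes received 92.5% ± 0.0592 of counts, and the genes at 10 to 100 FPKM were the class that received most, 42.5% of all counts.

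**Figure D1:**
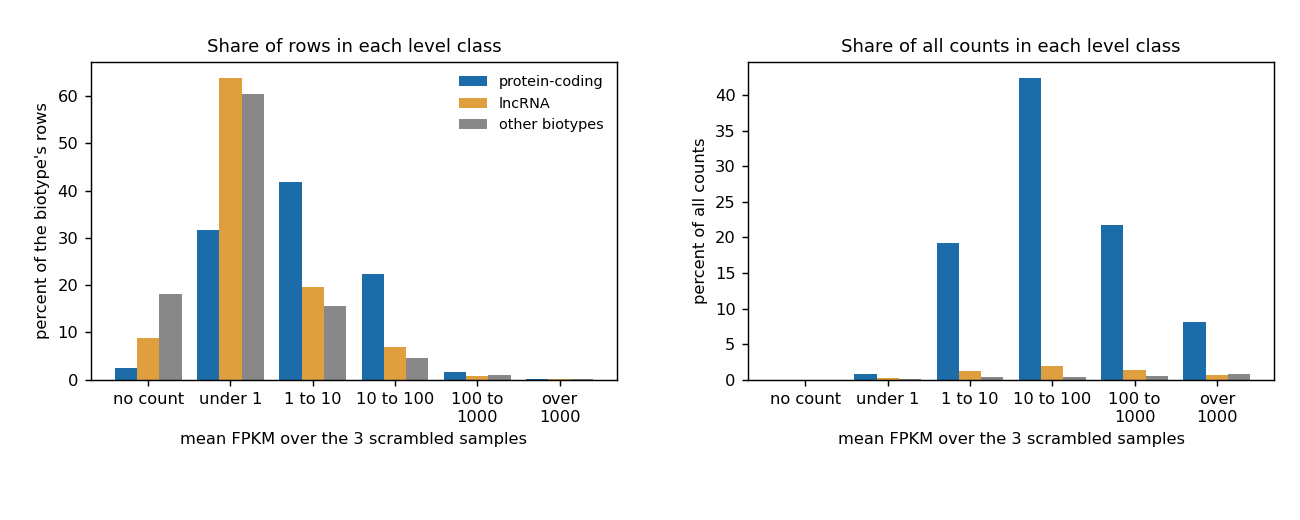
Rows of the table by mean FPKM over the 3 scrambled samples (horizontal axis, 6 classes). The left panel gives the percentage of the rows of each biotype group, and the right panel the percentage of all counts that fall in each class; protein-coding genes with 10 to 100 FPKM hold 42.5% of counts, and 63.9% of long non-coding RNA rows lie below 1 FPKM with some counts.

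Translation, iron storage and granule genes led the nuclear protein-coding genes. EEF1A1, the elongation factor that brings aminoacyl-tRNA to the ribosome, was highest at 4427 ± 106 FPKM, with 4395 in C1, 4340 in C3 and 4545 in C4. SRGN, the core protein of the proteoglycan that packs granule proteases, followed with 2711, 2792 and 2777 FPKM. ELANE, the neutrophil elastase gene, came next at 2047 ± 222 FPKM. The ferritin light chain gene FTL had 1687 ± 45.9 FPKM and the cathepsin G gene CTSG 1599 ± 39.2 FPKM. Among the 20 genes with the highest FPKM, 8 encoded ribosomal proteins, among them RPS12, RPS18, RPS27, RPL19, RPS6, RPS3A and RPL10A. The others included the actin genes ACTB (1045 ± 50.7 FPKM) and ACTG1 (985 ± 22.5), the RNA-binding protein gene YBX1 (955 ± 16.1) and the calprotectin subunit gene S100A9 (916 ± 73.4). AC138811.2, AC117378.1 and AL031847.2 also stood among the 20, and all exon bases of the former pair and 67.1% of those of AL031847.2 lie in exons of other protein-coding genes, so that their reads cannot be told apart from those of their neighbours.

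The 86 cytosolic ribosomal protein genes together took 9.40% ± 0.190 of counts. The 37 mitochondrially encoded genes took 3.60% ± 0.0938 of counts, of which the 13 protein-coding genes, the core subunits of the respiratory chain and ATP synthase, took 2.90%, the 2 ribosomal RNAs 0.414% and the 22 tRNAs 0.287%. Mitochondrial protein-coding genes ranged from 931 ± 22.5 FPKM for MT-ND5 to 6608 ± 238 for MT-ATP8, with the oxidase subunit gene MT-CO1 at 4843 ± 167. Because these genes are short, the 37 made up 20.5% ± 0.495 of the summed FPKM.

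Outside protein-coding genes, many rows lay within exons of coding genes. Long non-coding RNA (lncRNA) genes numbered 9140, of which 2284 (25%) were expressed and which took 5.44% ± 0.0489 of counts. Of the 2284, 757 (33.1%) had at least 50% of their exon bases inside exons of protein-coding genes on either strand. With such rows left out, the lncRNA share was 3.02% ± 0.0298. Rows under the 50% cutoff can still share reads with coding genes, such as AC011603.3 with 35.5% of its exon bases in coding exons. Among all non-coding rows 1736 were covered in this way, 1148 of them were expressed, and 286 lay wholly inside coding exons with a mean of at least 100 counts. The library kit is not stated to mark strand, so reads of a gene and of an overlapping row cannot be told apart. Rows on the same strand overlap too. PCBP2-OT1 had 3054, 3282 and 3036 counts, and AC023509.4, which lies within it on the same strand, had 3052, 3281 and 3035. Whether reads were counted in more than 1 row was not tested. Totals and shares of counts may therefore hold a read more than once.

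Several of the highest lncRNA rows were of this kind. AL138963.4 had 5176 ± 244 FPKM and lies wholly in exons of TPT1, the gene of the translationally controlled tumor protein. AC006064.4 had 2031 ± 58.5 FPKM and lies wholly in GAPDH. AC020656.1, wholly inside exons of the lysozyme gene LYZ, had 486, 388 and 482 FPKM, and LYZ itself had 358, 284 and 341, so that both were lowest in C3. Among lncRNAs with under 50% of exon bases in coding exons, AC010761.1 was highest at 1394 ± 52.8 FPKM, with 17.2% in coding exons. It lies within the span of RPL23A on the other strand. Its counts were 26355, 31669 and 27867, beside 29299, 34189 and 30236 for RPL23A. Whether its reads come from RPL23A was not tested. SNHG32 (394 ± 21.8 FPKM), SNHG29 (174 ± 7.30) and GAS5 (135 ± 8.70), which host small nucleolar RNAs in their introns, were also among the highest. The nuclear RNAs MALAT1, at 10.6 ± 1.08 FPKM, and NEAT1, at 4.91 ± 0.828, were far below them.

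The same overlap reached other classes to differing degrees. Of 696 miRNA rows 287 passed 1 FPKM in all samples, and 143 of these were covered by coding exons. The highest, MIR1244-1 at 3967 ± 144 FPKM and MIR1282 at 2002 ± 103, lie wholly in exons of PTMA and SERF2, and a row count in such a place is not a measure of the mature miRNA. Processed pseudogenes had 3207 rows, of which 249 (7.76%) were expressed, and 36 of these (14.5%) were covered. Of 394 small nucleolar RNA rows 181 were expressed, and 91 of these (50.3%) were covered. The unprocessed pseudogene row AL671883.2 (535 ± 18.2 FPKM) shares exons with HLA-B.

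All 10 genes on the azurophil granule list were expressed, with a median of 261 FPKM, against 3.10 FPKM for all protein-coding rows. The list held MPO, ELANE, PRTN3, AZU1, CTSG, RNASE2, RNASE3, MS4A3, SERPINB1 and LYZ. LYZ was counted on the monocyte list too. RNASE2 and RNASE3 were counted here and not on the eosinophil, basophil and mast cell list. Both were expressed, so the count of 0 for that list depends on this placement. The monocyte and macrophage list had 27 of 38 members expressed (71.1%, against 64.7% of all protein-coding rows), with a median of 11.4 FPKM. The counts were 4 of 16 for late neutrophil genes, 4 of 18 for stem and progenitor genes, 4 of 15 for dendritic cell genes, 5 of 14 for megakaryocyte genes, 2 of 15 for B cell genes, 2 of 21 for T and NK cell genes, 1 of 17 for erythroid genes and 0 of 14 for eosinophil, basophil and mast cell genes. Lists of other tissues gave 1 of 9 epithelial, 1 of 11 fibroblast and endothelial and 0 of 9 nerve and liver genes. The list counts include members with no row, whereas the 64.7% is over rows only. Of the defining monocyte markers, CD14 was expressed and FCN1 was near 0.

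**Figure D2:**
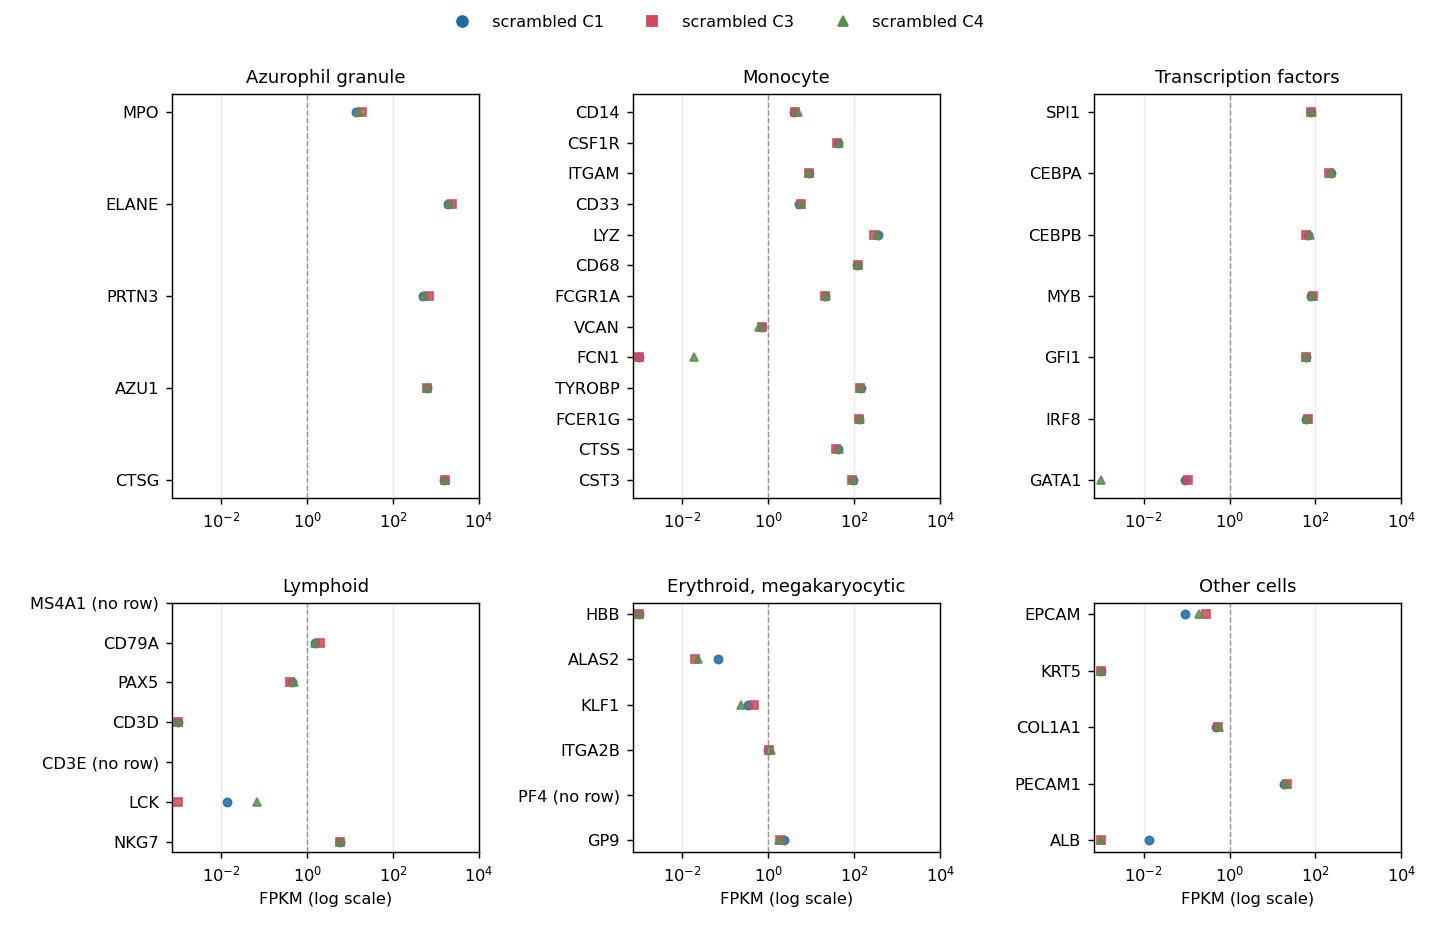
FPKM on a log scale for marker genes of 6 groups in scrambled C1, C3 and C4 (circles, squares and triangles), with a dashed line at 1 FPKM. Genes at 0 are drawn at the left edge at 0.001, and genes with no row in the table carry no symbol. ELANE, CTSG, AZU1 and PRTN3 lie at 498 FPKM or above in every sample, MPO lies between 13.8 and 19.3, and FCN1, HBB and CD3D lie near or at 0.

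ELANE and CTSG were the most abundant transcripts of the lineage lists, followed by S100A9 of the monocyte list. ELANE gave 1891 FPKM in C1, 2302 in C3 and 1949 in C4, and was highest in C3. PRTN3, which encodes proteinase 3, gave 498, 692 and 522 FPKM, and was also highest in C3. AZU1, which encodes the antimicrobial protein azurocidin, gave 618, 610 and 610 FPKM and hardly varied. AZU1, PRTN3, ELANE and CFD, the complement factor D gene (723 ± 23.6 FPKM), are neighbours on chromosome 19 between bases 825097 and 867884 (GRCh38, GENCODE 44), with their genes on the plus strand. CTSG lies on chromosome 14, minus strand, bases 24573518 to 24576250.

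MPO, which encodes myeloperoxidase, the most abundant azurophil enzyme of normal promyelocytes, was much lower than the proteases. Its FPKM was 13.8 in C1, 19.3 in C3 and 15.7 in C4. The remaining members ranged from 7.16 ± 0.714 FPKM for the ribonuclease gene RNASE3 to 328 ± 39.2 for LYZ, with RNASE2 at 194 ± 12.8 and MS4A3, a marker of granulocyte-monocyte progenitors, at 74.3 ± 1.56. MPO, ELANE, PRTN3, AZU1 and CTSG together took 0.610% ± 0.0396 of all counts, with 0.584% in C1, 0.656% in C3 and 0.590% in C4.

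Promoter stretches of the protease genes and of the highly expressed genes FTL and EEF1A1 are printed because their base composition differs although the levels of all 5 are high. Each is the 120 bases before the RefSeq start on GRCh38.p14, written 5′ to 3′ on the strand of the gene. Capitals mark matches on either strand to the cores named in the next paragraph: GAGGAAG (PU.1), TTGCNNAA (C/EBP), CCAAT (NFY) and GGGCGG (SP1, the GC box). In PRTN3 a CCAAT match and the TTGCNNAA match overlap.
CTSG, chr14:24576251-24576370, minus strand: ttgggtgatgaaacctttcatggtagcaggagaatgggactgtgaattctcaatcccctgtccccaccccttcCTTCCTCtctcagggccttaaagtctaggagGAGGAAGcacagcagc
PRTN3, chr19:840879-840998, plus strand: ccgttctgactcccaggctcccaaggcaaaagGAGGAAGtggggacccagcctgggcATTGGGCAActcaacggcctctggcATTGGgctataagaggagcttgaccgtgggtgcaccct
AZU1, chr19:827717-827836, plus strand: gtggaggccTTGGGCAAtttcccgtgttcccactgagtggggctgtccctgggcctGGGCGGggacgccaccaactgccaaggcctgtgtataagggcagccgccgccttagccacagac
FTL, chr19:48965189-48965308, plus strand: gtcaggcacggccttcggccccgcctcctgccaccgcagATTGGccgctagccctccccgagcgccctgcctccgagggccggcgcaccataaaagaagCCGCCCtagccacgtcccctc
EEF1A1, chr6:73521033-73521152, minus strand: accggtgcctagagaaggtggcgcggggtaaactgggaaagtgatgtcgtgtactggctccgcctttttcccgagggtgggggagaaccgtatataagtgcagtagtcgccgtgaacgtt

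The PU.1 core stood at bases -16 to -10 and, on the other strand, -47 to -41 from the start of CTSG, and at bases -88 to -82 from that of PRTN3. PU.1 and C/EBP factors are the main regulators of myeloid genes. Over windows of 300 bases (250 before to 50 after the start), the observed over expected CpG ratio was 0.143 for CTSG, 0.273 for PRTN3 and 0.276 for AZU1, against 0.722 for FTL and 0.891 for EEF1A1. Promoters were found for 7 of the 10 azurophil genes, and 5 of these 7 held TTGCNNAA, a motif in 8.37% of all 15812 promoters. TTGCNNAA was in 11.3% of promoters of genes with no row, and in 2 of 13 of the T and NK cell list. GAGGAAG was in 2 of the 7 azurophil promoters, those of CTSG and PRTN3. Such matches are descriptions of letters and not of binding.

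Across all 15812 coding promoters, of which 12965 matched a row, composition changed with the level of the gene. The median CpG ratio was 0.327 for genes with no row, 0.600 below 1 FPKM, 0.840 at 1 to 10, 0.869 at 10 to 100 and 0.871 above 100 FPKM. The GC box GGGCGG was found in 31.8%, 50.8%, 70.3%, 72.0% and 68.7% of promoters in the same order. The core CCGGAAG of ETS factors was found in 5.13%, 5.32%, 20.5%, 23.1% and 21.3%, and GCGCNTGCGC, the core of NRF1, in 3.51%, 4.14%, 11.4%, 14.1% and 12.8%.

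The TATA box and the PU.1 core followed other orders. TATAAA was found in 19.7% of promoters of genes with no row, 12% below 1 FPKM, 4.87% at 1 to 10, 5.32% at 10 to 100 and 14.2% above 100 FPKM, where 30 of 211 promoters held it (95% Wilson interval 10.1 to 19.6%). When genes were sorted by TPM in place of FPKM, the share above 100 was 8.85%. GAGGAAG was in 21.3% of promoters above 100 FPKM (16.3 to 27.3%), 18.2% above 100 by TPM, and in 14.2% of all promoters. CACGTG, bound by MYC and MAX, was in 10.4% above 100 FPKM and 8.87% of all, and CCAAT in 40.3% and 36.3%. For nuclear factor I, the half-site TTGGCA was in 7.11% of promoters above 100 FPKM (4.36 to 11.4%) and in 10.8% of all, and the full site TTGGCNNNNNGCCAA was in 6 of 15812.

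Monocyte genes spanned a wide range of levels. S100A9 and its partner S100A8 had 916 ± 73.4 and 284 ± 14.0 FPKM. The signaling adaptors TYROBP (138 ± 2.06 FPKM) and FCER1G (132 ± 6.44), the scavenger receptor gene CD68 (119 ± 4.03) and the protease inhibitor gene CST3 (91.0 ± 0.187) were also high. ITGB2, which encodes the beta chain of leukocyte integrins, was at 202 ± 9.69 FPKM, and its partner ITGAM at 8.76 ± 0.0408.

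The receptor for macrophage colony-stimulating factor, CSF1R, had 42.7 FPKM in C1, 40.04 in C3 and 43.5 in C4. CD14, the lipopolysaccharide co-receptor that defines classical monocytes, had 3.98, 4.07 and 4.83 FPKM from 144, 167 and 172 counts. FCN1, a lectin gene of mature monocytes, had 0, 0 and 3 counts. VCAN, the versican gene that is also high in classical monocytes, was at 0.675 ± 0.060 FPKM. Several macrophage genes were near 0, with 1, 2 and 3 counts for the hemoglobin scavenger receptor CD163, 0, 1 and 2 for the mannose receptor MRC1, and 0, 2 and 0 for the complement gene C1QB. The Fc receptor genes FCGR1A and FCGR2A had 21.4 ± 0.585 and 16.8 ± 0.565 FPKM, whereas FCGR3A, the marker of non-classical monocytes, had 0, 2 and 0 counts.

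Genes of the later granulocyte stages were mostly low. CSF3R, the receptor of granulocyte colony-stimulating factor, was at 23.8 ± 0.609 FPKM, the chemokine receptor gene CXCR2 at 5.04 ± 0.639, MMP9 at 4.53 ± 0.455 and CAMP at 2.18 ± 0.827. LTF, the lactoferrin gene of specific granules, had no count, and LCN2, CEACAM8, FCGR3B and OLFM4 had no row in the table.

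Stem cell genes were split in the same way. The scaffold factor gene LMO2 had 51.5 ± 3.29 FPKM, the growth factor receptor gene FLT3 22.7 ± 0.297 and KIT 3.42 ± 0.491, and GATA2 1.30 ± 0.125. CD34, the surface marker of hematopoietic progenitors, had 0, 1 and 0 counts, PROM1 had 0, 0 and 1, HOPX had none, and MECOM had no row. Of dendritic cell genes, IRF8 (62.9 ± 3.21 FPKM), FLT3, CD83 (3.47 ± 0.354) and BATF3 (2.49 ± 0.188) were expressed and CLEC9A had no count.

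Lymphoid, erythroid and platelet genes with a level above 1 FPKM were few. CD4, which monocytes also carry, was the highest of the T and NK cell list at 98.9 ± 2.17 FPKM, followed by the granule membrane protein gene NKG7 at 5.83 ± 0.140. CD3D had no count and CD3E had no row. The B cell receptor signaling genes CD79B and CD79A were at 7.34 ± 0.380 and 1.71 ± 0.276 FPKM, with PAX5 at 0.446 ± 0.0527 and MS4A1 without a row. Of the erythroid list only the transferrin receptor gene TFRC, which dividing cells use, was expressed (18.1 ± 0.866 FPKM). HBB had no count.

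Platelet glycoprotein genes gave low values, with ITGA2B at 1.06 ± 0.0673 FPKM, GP9 at 1.97 ± 0.251 and GP1BA at 1.67 ± 0.573. GP1BB had 6.65 ± 1.32, but all its exon bases lie in exons of AC000093.1. FLI1, a factor of megakaryocytes and many other blood cells, had 15.8 ± 0.534, and PF4 had no row. In the lists of other tissues, the adhesion gene PECAM1, which leukocytes share with endothelium, had 20.2 ± 1.37 FPKM and the mucin gene MUC1 1.66 ± 0.0826. EPCAM was at 0.188 ± 0.0936 FPKM, COL1A1 at 0.525 ± 0.0490, and KRT5 had no count.

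Of 23 transcription factors of myeloid cells 20 were expressed (87.0%, against 64.7% of all protein-coding rows). CEBPA, the factor that commits progenitors to the granulocyte-monocyte branch, was highest with 236, 210 and 233 FPKM in C1, C3 and C4. MYB, a factor of immature cells, had 84.0 ± 4.54 FPKM, and SPI1, which encodes PU.1, 79.5 ± 2.47. CEBPB (67.5 ± 6.82 FPKM), CEBPD (63.0 ± 0.822), the monocyte and dendritic cell factor IRF8 (62.9 ± 3.21) and the granulocyte repressor GFI1 (60.5 ± 0.316) lay close together, and the order of these 4 did not hold in every sample. RUNX1 was at 14.8 ± 0.278 FPKM and the monocyte factor KLF4 at 6.59 ± 0.968. Other factors were lower, with MAF at 0.0581 ± 0.0165 and EGR2 at 0.149 ± 0.0775 FPKM, and the erythroid factor GATA1 had 3, 4 and 0 counts.

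In the nuclear factor I family, the factors that bind TTGGC and its inverted repeat GCCAA, 2 of 4 genes were expressed. NFIC, the target of the study's shRNA, had 4.23, 4.17 and 4.27 FPKM from 911, 1019 and 904 counts, rank 7460 among protein-coding rows. NFIX had 4.002, 3.79 and 3.83 FPKM. By FPKM, NFIC was slightly above NFIX in each of the 3 samples, an order that depends on the gene lengths used. NFIA had 14, 17 and 15 counts (0.0120 ± 0.000537 FPKM) and NFIB 0, 1 and 0 counts.

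On the list of HOXA genes and cofactors 9 of 15 were expressed (60%, against 64.7% of all protein-coding rows), of which 6 were HOXA genes, out of 11, and 3 were cofactors. Of the HOXB, HOXC and HOXD clusters, 2 of 28 genes were expressed. HOXA9, the HOX gene most tied to MLL-rearranged leukemia, had 21.2 FPKM in C1, 22.5 in C3 and 21.6 in C4. HOXA10 (19.3 ± 0.429 FPKM), HOXA11 (11.5 ± 0.539), HOXA13 (5.65 ± 0.187) and HOXA7 (3.08 ± 0.255) followed, and HOXA5 had 1.46 ± 0.142. HOXA3, HOXA4 and HOXA6 averaged 0.513 to 0.809 FPKM and HOXA2 had 0, 3 and 1 counts. Along the cluster on chromosome 7, the 4 highest genes, HOXA9 to HOXA13, were thus the ones at the 5′ end, while HOXA2, HOXA3 and HOXA4, toward the other end, stayed below 1 FPKM.

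The HOX cofactors differed from each other. PBX2 and PBX3, which bind DNA together with HOX proteins, had 52.5 ± 1.98 and 27.3 ± 0.913 FPKM. MEIS1, the third partner of the complex, was at 1.45 ± 0.0977, with 1.43, 1.36 and 1.56 in C1, C3 and C4. In the other clusters, HOXB4 (3.09 ± 0.246 FPKM) and HOXB7 (2.10 ± 0.444) passed 1 FPKM in all samples, HOXC4 averaged 1.09 ± 0.254 but was at 0.798 in C3, and HOXD10 had no count.

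**Figure D3:**
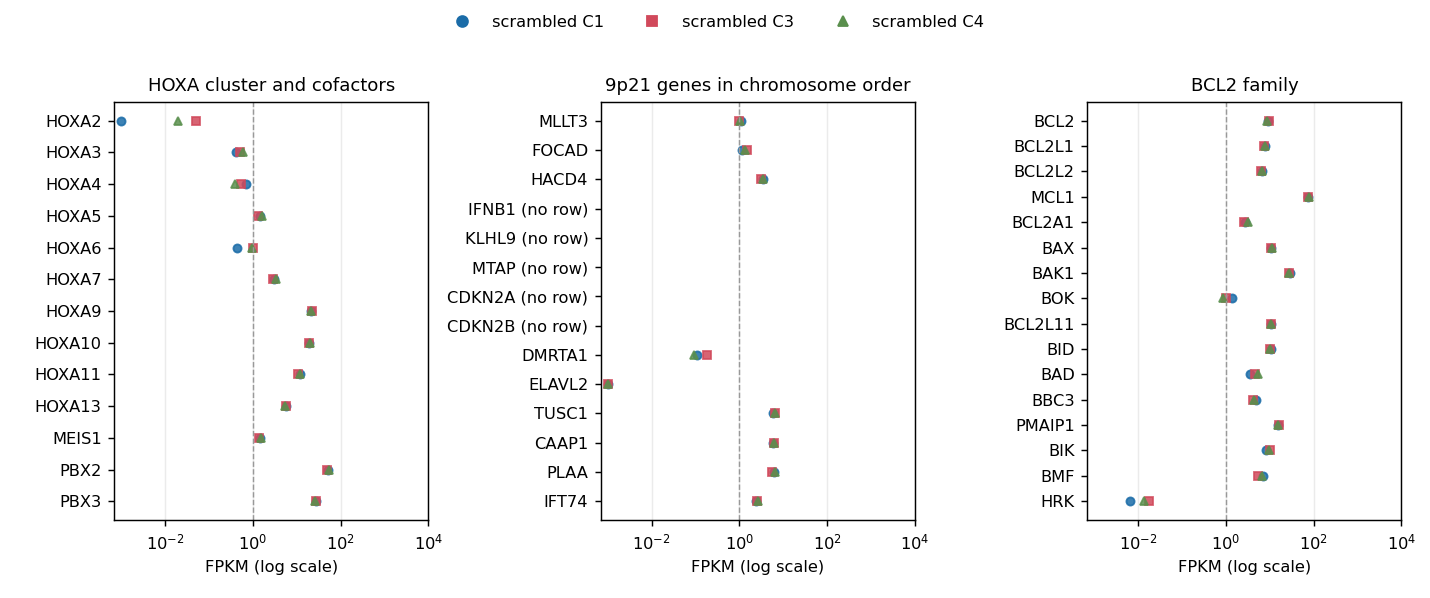
FPKM on a log scale for HOXA genes with their cofactors, genes at 9p21 in chromosome order and the BCL2 family, in scrambled C1, C3 and C4, with a dashed line at 1 FPKM. Genes at 0 are drawn at 0.001 and genes with no row carry no symbol; HOXA9 lies at 21.2 to 22.5 FPKM, CDKN2A and CDKN2B have no row, and MCL1 leads its family at 75.9.

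The partners of the fusion itself were low. KMT2A, the histone H3 lysine 4 methyltransferase gene at the 5′ side of the fusion, had 2.13, 2.10 and 2.11 FPKM, and MLLT3, the elongation complex gene at its 3′ side, 1.10, 0.986 and 1.03. Gene counts do not separate the fusion transcript from those of the intact alleles. Of the list of MLL complex members and fusion partners 19 of 21 were expressed (90.5%, against 64.7% of all protein-coding rows). The chromatin tether gene PSIP1 was highest at 24.5 ± 0.431 FPKM, the histone H3 lysine 79 methyltransferase gene DOT1L had 12.4 ± 0.520, and the menin gene MEN1 6.94 ± 0.241. DPY30 had 16.7 ± 0.221, with 50.8% of its exon bases in exons of other coding genes, and WDR5 had 15.9 ± 0.183.

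Of 25 genes listed as targets of MLL::AF9, 23 were expressed (92%, against 64.7% of all protein-coding rows), with a median of 19.3 FPKM. MYB and GFI1 (above) were highest, followed by the splicing factor gene MBNL1 (52.6 ± 0.249 FPKM), LMO2 and MYC (48.4 ± 1.81). The RNA-binding protein gene IGF2BP2 had 31.7 ± 0.986, the cyclin-dependent kinase gene CDK6 22.9 ± 0.292 and the receptor tyrosine kinase gene RET 21.9 ± 0.563. EYA1, a gene of a developmental transcription complex, was among those below 1 FPKM (0.0704 ± 0.0107). This list shares MYB, GFI1, LMO2, FLT3, HOXA9, HOXA10, PBX3, MEIS1, ZEB2, BCL2, MYC and CDK6 with other lists described here.

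Genes recurrently mutated in AML were expressed in 35 of 37 cases (94.6%, against 64.7% of all protein-coding rows). CEBPA and the nucleolar protein gene NPM1 (223 ± 7.02 FPKM) were highest, followed by the splicing factor genes SRSF2 (104 ± 6.55) and SF3B1 (57.3 ± 1.72). By function, all 9 signaling genes (median 19.1 FPKM), all 4 cohesin genes (22.9) and 8 of 9 genes of chromatin and DNA methylation (9.91 over those with a row) were expressed. NRAS had 39.7 ± 1.00 FPKM, DNMT3A 4.34 ± 0.156, TET2 5.96 ± 0.220 and WT1 2.17 ± 0.258. KDM6A, a histone H3 lysine 27 demethylase gene, had no row. U2AF1 was listed at 0.117 ± 0.0265 FPKM and its near-identical copy U2AF1L5 at 0.235 ± 0.0310. Both values are uncertain, and how reads that match both copies were counted was not tested.

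All 21 tumor suppressors and regulators with a row were expressed, of 23 on the list (91.3%, against 64.7% of all protein-coding rows). CDKN2C, an inhibitor of CDK4 and CDK6, was highest with 64.1, 63.3 and 63.4 FPKM. RB1 (25.05 ± 0.477 FPKM), CDKN1B (21.7 ± 1.88) and CDKN1A (15.97 ± 0.389), which restrain entry into S phase, were also among the highest. CDKN2A and CDKN2B, inhibitors of the same kinases as CDKN2C, had no row.

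The same absence ran over their neighbours on the short arm of chromosome 9. Between HACD4 and DMRTA1, GENCODE 44 has 20 protein-coding genes, 16 of them interferon genes, over bases 21077104 to 22009305 (932 kb). Only 1 of the 20 had a row, an interferon gene with no count in the 3 samples, whereas 16988 of 19970 protein-coding genes of the autosomes and X had a row (85.1%). MTAP, a methionine salvage gene that most cells use, and KLHL9, a ubiquitin ligase adaptor gene, were among those without one. On either side, HACD4 had 3.34 ± 0.169 FPKM and DMRTA1 13, 26 and 11 counts (0.128 ± 0.0515 FPKM), and farther out FOCAD had 1.33 ± 0.188 and TUSC1 6.31 ± 0.366. For a gene with no row, a count of 0 and an omission from the table cannot be told apart here.

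Of 20 surface antigens of AML blasts 14 were expressed (70%), near the 64.7% of all protein-coding rows. CD70, a ligand of the TNF family, had 49.2 ± 1.54 FPKM, the inhibitory receptor gene LILRB4 21.7 ± 0.387 and the integrin gene ITGAL 17.5 ± 2.24. IL3RA, which encodes CD123, was at 8.56 ± 0.729 FPKM, CD38 at 6.39 ± 0.329, CD33 at 5.60 ± 0.370 and CLEC12A at 5.13 ± 0.532. HAVCR2, which encodes TIM-3, was at 0.303 ± 0.163 and CD96 had 0.00238 ± 0.00412 FPKM.

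In the BCL2 family, which sets the threshold of mitochondrial apoptosis, 14 of 16 genes were expressed (87.5%, against 64.7% of all protein-coding rows). Among the 5 antiapoptotic members MCL1 was highest with 75.4, 74.8 and 77.4 FPKM, far above BCL2 (9.07 ± 0.458), BCL2L1 (7.63 ± 0.125), BCL2L2 (6.55 ± 0.246) and BCL2A1 (2.79 ± 0.323). Of the effectors, BAK1 had 27.7 ± 0.997 FPKM, BAX 11.04 ± 0.434 and BOK 1.08 ± 0.251. The BH3-only genes were led by PMAIP1 (15.7 ± 0.751 FPKM), BCL2L11, which encodes BIM (10.6 ± 0.189), BID (10.3 ± 0.273) and BIK (9.40 ± 0.940), and HRK had 1, 3 and 2 counts. AIFM1, which encodes apoptosis-inducing factor, was at 6.04 ± 0.659 FPKM, AIFM3 at 2.72 ± 0.182 and AIFM2 at 1.85 ± 0.142. MMP2, a gelatinase gene, had 17.1 ± 1.15 FPKM.

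Of 19 proliferation genes 17 were expressed (89.5%, against 64.7% of all protein-coding rows). They were led by TOP2A (72.9 ± 2.51 FPKM), the sliding clamp gene PCNA (67.7 ± 12.3), TYMS (59.8 ± 8.36) and CDK4 (57.8 ± 1.27). Among D-type cyclins, CCND3 had 38.6 FPKM in C1, 36.01 in C3 and 41.4 in C4. CCND1 had 0.695 ± 0.0956 and CCND2 0.305 ± 0.0709. TERT, the telomerase reverse transcriptase gene, was at 2.11 ± 0.679 FPKM.

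Lysosome, MHC class I and unfolded protein response genes were broadly on, and cytokine and interferon genes mostly low. For scale, 64.7% of all protein-coding rows were expressed. All 17 lysosome and iron genes were expressed, with PSAP, the saposin precursor gene, at 442 ± 27.2 FPKM, FTH1 at 325 ± 25.3 and GRN at 194 ± 3.57, where 63.2% of the exon bases of FTH1 lie in exons of other coding genes. Of 14 genes of the unfolded protein and ATF4 response 13 were expressed, with ATF4 at 379 ± 16.7 FPKM and the chaperone gene HSPA5 at 163 ± 2.25. Of 24 hypoxia and glycolysis genes 20 were expressed, led by GAPDH (767 ± 14.9), ENO1 (195 ± 10.6), ALDOA (175 ± 3.51) and TPI1 (140 ± 3.57), whereas the hypoxia markers CA9, ADM, EGLN3 and ANGPTL4 averaged 0.0965 FPKM or less. VEGFA, listed in the table under a pseudogene biotype, had 19.6, 12.7 and 18.5 FPKM and was lowest in C3. All 13 reference genes of the housekeeping list were expressed, from TBP at 13.1 ± 1.11 FPKM to EEF1A1.

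All 11 MHC class I genes were expressed, with HLA-B at 521 ± 4.61 FPKM, HLA-C at 298 ± 4.61 and B2M at 257 ± 16.1. For class II the count was 9 of 13 (69.2%), near the 64.7% of all protein-coding rows. HLA-DRA, the alpha chain of HLA-DR, had 102, 123 and 102 FPKM, CD74, the invariant chain, 87.4 ± 3.49, and HLA-DRB1 74.4 ± 6.84, while HLA-DPA1 had 7.64 ± 0.339, HLA-DQA1 0.211 ± 0.102 and HLA-DMB 0.203 ± 0.0462. The class II transactivator gene CIITA was at 1.06 ± 0.0350. HLA genes share sequence with each other, so counts may be split between them.

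Of 20 interferon-stimulated genes 8 were expressed (40%, against 64.7% of all protein-coding rows). IFI6 was at 40.3 ± 1.15 FPKM and ISG15 at 7.26 ± 0.153, while MX1 had 0.443 ± 0.0301 and IFIT1 0.150 ± 0.0430. Of 17 cytokine genes 6 were expressed (35.3%). TGFB1 had 66.0 ± 1.33 FPKM, the chemokine gene CCL5 41.3 ± 3.66, TNF 11.3 ± 1.95 and CXCL8 2.85 ± 0.260. IL1B was at 0.297 ± 0.125 FPKM and IL6 had no count. Of 17 immediate early genes 13 were expressed (76.5%), from MYC at 48.4 ± 1.81 FPKM to NR4A1 at 1.17 ± 0.121.

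The 3 samples resembled each other closely, and C3 differed most from the others. Over the 13238 genes with a mean of at least 100 normalized counts, the median coefficient of variation was 5.32%, falling from 6.67% at 100 to 1000 counts to 3.26% over the 280 genes with the most counts. As a description across genes, which are not independent, Pearson's r of log2 normalized counts was 0.994 for C1 and C3, 0.997 for C1 and C4 and 0.995 for C3 and C4. The biological coefficient of variation, the spread beyond counting noise that edgeR estimates over 18333 genes, was 0.0540. It was 0.0296 when C3 was left out, 0.0586 without C1 and 0.0658 without C4.

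Of the 13238 genes 169 (1.28%) had a highest sample over 1.5 times the lowest, and only ETV4 and SNAP25 exceeded 2 times. C3 was the sample farthest from the mean in 109 of the 169 and in 43.9% of all 13238. ETV4, an ETS factor gene, had 1.19, 1.94 and 0.895 FPKM, and SNAP25, a vesicle fusion gene, 0.949, 2.03 and 1.21. The widest 15 protein-coding genes included TERT (1.98, 2.85 and 1.51 FPKM), GDF15, a stress-induced cytokine gene (8.86, 4.96 and 6.74), and the adhesion gene ICAM1 (4.38, 2.47 and 3.88). C3 was the highest sample for ETV4, SNAP25, ARHGAP44, TERT, PARPBP, ALDH7A1, LAGE3 and ACOT7, and the lowest for KLHDC7B, ZDHHC11, KIAA1614, GDF15, ICAM1 and ABCA3, whereas SERAC1 was highest in C1 and lowest in C4.

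Among the lists with at least 5 genes at 100 or more mean normalized counts, proliferation genes deviated most in C3. Their median log2 deviation from the 3-sample mean was -0.06 in C1, 0.18 in C3 and -0.09 in C4, against -0.01, 0.00 and 0.00 over all 13238 genes, and 15 of the 17 members with enough counts were above their mean in C3. PCNA had 61.8, 81.7 and 59.5 FPKM, and MCM2, a subunit of the replicative helicase, 30.4, 39.8 and 31.3. The ATF4 response list moved the other way, with 0.06 in C1, -0.09 in C3 and 0.05 in C4, and so did the immediate early list, with 0.09, -0.10 and 0.02. The median deviation over the 11 MHC class I genes lay within 0.01 of 0 in every sample.

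**Figure D4:**
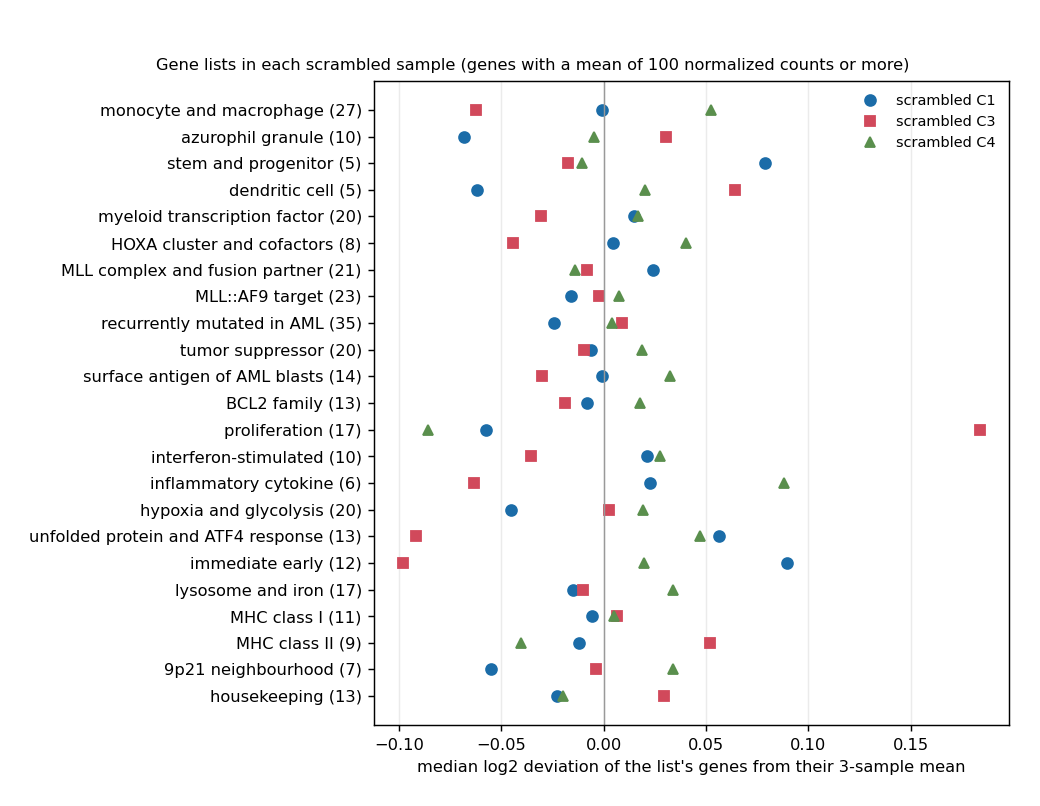
Median log2 deviation of each list's genes from their mean over the 3 scrambled samples (horizontal axis), for lists with at least 5 genes at 100 or more mean normalized counts (number in parentheses), in C1 (circles), C3 (squares) and C4 (triangles). Proliferation genes lie at 0.18 in C3 and below 0 in C1 and C4.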

How the data were processed

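The 3 samples of THP-1 cells with scrambled shRNA were read from 1 table of the series. The authors trimmed paired-end reads with Trim Galore, aligned with STAR against GRCh38 and counted reads over Ensembl genes using featureCounts; tool versions are not given in the sources used here. The deposited raw counts are whole numbers per gene (21619842 to 24809720 in all per sample), and a read in overlapping rows may be counted more than once. The deposited normalized signal is each count over its sample's DESeq2 size factor (0.980, 1.11 and 0.964), and the deposited FPKM is that signal per kilobase of gene length, scaled to 1 total shared by all samples, so FPKM sums differ little and are not fixed. The authors also deposited log2 fold changes, test scores and p-values of their own comparison, which were not used.

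Expressed meant FPKM of at least 1 in every scrambled sample, and a list was described by its count and median. No group test was made, since there is 1 group. Exon overlap came from GENCODE 44 (33803 of 33981 rows matched), motifs from 300-base RefSeq promoters of GRCh38.p14, and spread from edgeR 4.0.16 in R 4.3.3 with an intercept only, after a check on simulated counts. Chi-square per degree of freedom between libraries was 5.07 (C1 and C3), 1.99 (C1 and C4) and 4.29 (C3 and C4), above sampling noise for each pair. Genes were named by rank: the 20 highest nuclear and 13 mitochondrial coding genes, the leading, absent and marker members of each list, all members of short lists, the highest rows of each biotype, the 15 widest genes, the NFI family and 10 genes of the study; U2AF1L5, MALAT1, NEAT1, CFD and the other members named were added after their values were seen. Some members of the lists are not reported here. The lists, rules and members were chosen with earlier results of these data known.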

Additional observations from a re-analysis of the deposited data

How the results depend on the processing

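No paired analysis was possible because the description rests on 1 group and no result comes from a test between groups. The counts of expressed genes stayed within 1.5 times of 14715 (all) and 11049 (protein-coding) under every other threshold, unit and left-out sample tried; with rows covered by coding exons left out, an alternative chosen after seeing the data, 12854 rows were expressed. By FPKM in place of counts, the share of protein-coding genes was 66.1%, of mitochondrially encoded genes 20.5% and of the 100 leading genes 40.2%; leaving out covered rows, also chosen after seeing the data, moved the lncRNA share to 3.02%. The biological coefficient of variation was 0.0296 to 0.0658 with 1 sample left out, lowest without C3. Genes varying over 1.5 times numbered 469 at a mean of 50 counts, 9 at 500, 2 at a ratio of 2, and 26 (without C3) to 109 (without C4) with 1 sample left out, 66 without C1. The TATA share above 100 was 8.85% with TPM classes. Of 238 list counts under alternatives, 27 moved by over 1.5 times, 23 upward and 4 downward, all in 12 lists with few expressed members, and 1 of these was a left-out sample. With at least 10 counts per sample in place of 1 FPKM, the counts were 7 for B cell genes, 7 for T and NK cell genes, 2 for erythroid, 9 for megakaryocyte, 7 for stem and progenitor, 2 for eosinophil, basophil and mast cell, 2 for epithelial, 3 for fibroblast and endothelial, 3 for nerve and liver, 8 for other HOX, 14 for interferon-stimulated and 10 for cytokine genes. Low FPKM rests on few counts and is imprecise.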
